A study of Mus musculus with 3 samples.

Results

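The cells described here are classical monocytes, the Ly6C-high, CCR2-bearing blood monocytes found in the lung, in single-cell RNA libraries from a mouse model of EGFR-mutant lung adenocarcinoma. They were selected on their own measured UMIs (unique molecular identifiers, each counted as 1 captured transcript), so the genes of the rule below describe the selection and are not findings. In each library a barcode needed at least 1000 UMIs, at least 500 detected genes and at most 10% mitochondrial UMIs. Of these, a cell was kept with at least 1 UMI of F13a1 and at least 4 of F13a1, Ly6c2 and Ccr2 together. It could hold at most 2 UMIs of the nonclassical genes Treml4, Adgre4, Cd300e and Eno3, at most 4 of the C1q genes, at most 2 of Mgl2, Cd209a and Ccl17, and at most 1 each of Marco with Siglecf, of the Cd3 chains, and of Epcam with Cdh5. This gave 188 classical monocytes among 12458 cells, with 74 of them from WT healthy lungs, 68 from WT tumour lungs and 46 from PPARg-/- tumour lungs.

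The study asked how loss of the nuclear receptor PPARγ in macrophages bears on lungs with tumours driven by mutant EGFR. All mice carried Ccsp-rtTA with TetO-EGFRL858R, in which doxycycline and a club-cell promoter turn on the L858R form of human EGFR in the airway and alveolar epithelium. The WT healthy genotype had these transgenes alone, the WT tumour genotype added homozygous floxed Pparg, and the PPARg-/- tumour genotype added the floxed alleles and Csf1rCre, which puts Cre in cells that use the Csf1r promoter, monocytes among them. Mice were 16 to 20 weeks old, and the protocol, which is the same for all 3 groups, states chow with 625 ppm doxycycline; it does not say how the healthy group was kept free of tumours. Each group was 1 library of cells pooled from 3 mice, made from equal parts of 4 sorted populations: alveolar macrophages, CD11b+ Ly6G- cells, CD3+ T cells and EPCAM+ epithelium. With 1 library per group there is no replicate, no test between groups was possible, and every interval below covers counting error only.

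As background, classical monocytes leave the bone marrow through CCR2 and enter inflamed tissue, where they can become macrophages or dendritic-like cells that present antigen on MHC class II. In the blood they also give rise to nonclassical monocytes, which patrol the vessel wall and depend on the transcription factor Nr4a1. Monocytes respond strongly to type I and type II interferon, and PPARγ is best known in the lung for its part in forming alveolar macrophages from their monocyte precursors.

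The members held 498186, 379688 and 234383 UMIs, with medians of 6576, 5155 and 4963 UMIs per cell. Values given in threes, here and below, run from WT healthy over WT tumour to PPARg-/- tumour. No barcode was shared between libraries among them (4 to 6 barcodes were among all cells), and Scrublet marked 1 of the 188 as a likely doublet. Xist, transcribed from the inactive X chromosome of females, stood at 660 CPM (UMIs of a gene scaled to a total of 1000000 over the members of a library) in WT healthy and had 0 UMIs in both tumour libraries. Y-linked Ddx3y stood at 0, 100.1 and 115 CPM in the same order. The protocol states that both sexes were used about equally; in these libraries sex cannot be told apart from the step between healthy and tumour, nor can the floxed alleles. Between the tumour libraries both genes are alike. Of the WT tumour members 4 stood apart, each with over 2 times the library's median UMIs or at least 20 Spp1 UMIs. They held 13.6% of that library's member UMIs, all 50 of its Arg1 UMIs, 94.7% of its Spp1, 93.5% of its Cd63 and 82.1% of its Lpl UMIs, so the results that rest on WT tumour are given with and without them where they move.

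The label was set against markers. All 22 genes of a classical monocyte list had UMIs in each library. Leaving out Lyz2 and the 3 positive genes of the rule, the other 18 summed to 17853, 17622 and 17860 CPM in the members against 7261, 6152 and 6689 CPM in nonclassical monocytes, and 17 of them were higher in the members of each library, with Clec4e the exception. Nonclassical monocytes were called by at least 4 UMIs of Treml4, Adgre4, Cd300e and Eno3, so both kinds were set apart by their own genes and this is a description. Plac8, a cysteine-rich protein of unsettled function used to mark these cells, stood at 4561, 3234 and 3729 CPM. Ms4a4c, a membrane-spanning protein of the MS4A family, stood at 833, 643 and 990 CPM.

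Several markers of other cells are limited by the rule. The 16 nonclassical markers summed to 2142, 2668 and 2854 CPM, against 11504, 12490 and 12108 CPM in nonclassical monocytes. Of the neutrophil list, Ly6g, Ngp, Camp and Ltf were at 0 in all 3 libraries, and Cd3e was at 0 among the T cell genes. Of 11 markers of monocyte-derived dendritic cells, Mgl2, Ccl17 and Zbtb46 were at 0, the first and second of which the rule limits. The list summed to 102, 140 and 213 CPM, against 53.5, 88.9 and 133 CPM in nonclassical monocytes, with Clec10a at 36.1, 44.8 and 42.7 CPM. B cell markers summed to 145, 129 and 375 CPM, of which Ighm, the IgM heavy chain, made up 106, 105 and 307 CPM. Interstitial macrophage markers summed to 2453, 2175 and 2244 CPM, and alveolar macrophage markers to 759, 1801 and 683 CPM. The part of such cells or of their RNA in the results was not tested. Basophil and mast cell genes were at 0 except for 29.9 CPM in PPARg-/- tumour. Lyz2, the macrophage lysozyme, stood at 28297, 26690 and 32148 CPM in the members, and in free RNA, read from barcodes of 10 to 100 UMIs, at 13323, 22783 and 48578 CPM; the part of free RNA in the members' level was not tested.

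Among the genes of the rule, F13a1 (coagulation factor XIII A chain, mm10 chr13:36867178-37050244) stood at 791, 930 and 1003 CPM. Ly6c2 (chr15:75108158-75111970), which encodes the Ly6C antigen, stood at 2128, 1501 and 2091 CPM. Ccr2 (chr9:124101950-124113557), the receptor for the chemokine CCL2, stood at 825, 1414 and 1306 CPM. Most cells lay far inside the limits: the 3 genes summed to medians of 23.5, 19 and 20 UMIs per cell, and 2 cells per library sat at the limit of 4. Just outside, 2, 2 and 0 cells that met the other limits had a sum of 3. The demand for F13a1 was the sharper edge, since 12, 11 and 8 members had exactly 1 UMI of it. On its other side, 16, 21 and 12 cells met every other limit, had at least 20 Lyz2 UMIs and no F13a1, with Plac8 at 3496, 3057 and 4596 CPM.

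Classical cells were a smaller part of the monocytes in the tumour libraries, and the smallest in PPARg-/- tumour. They made up 74 of 295 monocytes in WT healthy, or 25.1% (exact binomial 95% interval 20.2 to 30.4). In WT tumour they were 68 of 433, or 15.7% (12.4 to 19.5). In PPARg-/- tumour they were 46 of 862, or 5.34% (3.93 to 7.05). None of the 3 intervals overlap, and the number of classical cells differed less than that of nonclassical cells, which were 221, 365 and 816. Under tighter limits on other lineages, the members numbered 45, 49 and 26 and their shares were 16.9%, 11.9% and 3.14%. The WT healthy interval then began at 12.6% and overlapped that of WT tumour, which ended at 15.4%. With all cells thinned to 2000 UMIs before the selection, the WT tumour share was 19.6% (15.2 to 24.7), and its interval overlapped that of WT healthy as well. In both settings the order of the libraries was the same and the PPARg-/- tumour interval lay below the others. The share of all sorted cells is set by the mixing of the 4 populations and is not compared.

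**Figure D1:**
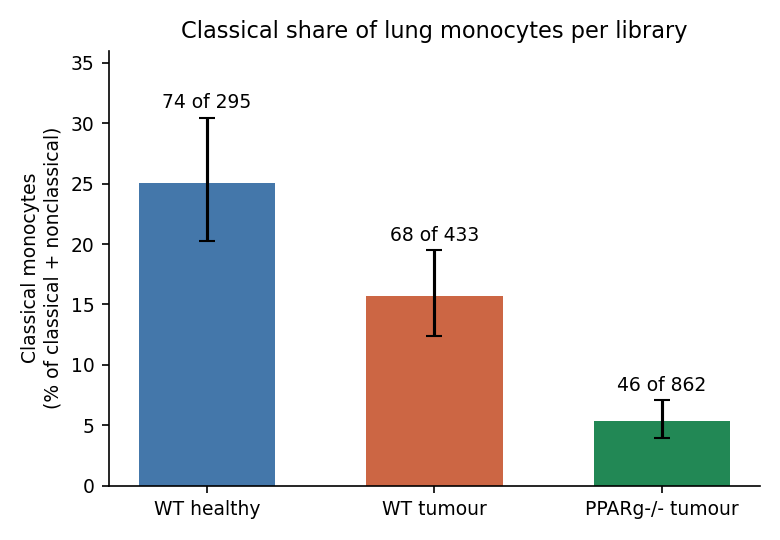
Classical monocytes as a percentage of classical plus nonclassical monocytes in each library, with cell numbers above the bars; error bars are exact binomial 95% intervals and cover counting error only. The share stands at 25.1%, 15.7% and 5.34% from left to right.

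Pparg itself (chr6:115360951-115490399) was close to undetected in these cells in every library. It had 7, 4 and 4 UMIs, or 14.1, 10.5 and 17.1 CPM, with a log2 ratio of PPARg-/- over WT tumour of 0.70 (exact 95% interval -1.73 to 3.12). Nonclassical monocytes of the same libraries held 179, 200 and 171 CPM. After each cell was thinned to 2000 UMIs, 1 of 74, 0 of 66 and 1 of 46 members had a Pparg UMI (1.35%, 0% and 2.17%), against 28.2%, 26.3% and 26.9% of nonclassical monocytes. T cells, whose median depths were 3934, 3200 and 2895 UMIs, had 1.26%, 1.62% and 2.68%, so the share in classical monocytes was at the level of background. Before thinning, 8.11%, 5.88% and 8.70% of the members had one. The counts come from the 3' end of the transcript and the floxed exons are not named in the labels, so the level in PPARg-/- tumour is no check of the deletion.

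The first comparison asked how classical monocytes of the PPARg-/- tumour library differ from those of the WT tumour library. In PPARg-/- tumour 10 of 28 interferon-response genes and 6 of 17 inflammatory and NF-kB genes counted as higher, and 4 of 10 genes of MHC class II and costimulation as lower. Of these 6, 3 and 4 genes, in the same order, also met further limits set against single cells and free RNA. These limits look only at the library in which a gene is higher. A gene counted as higher or lower at a ratio of at least 1.5-fold with an exact 95% interval clear of 1; this sorts genes by size and tests nothing. Of 4257 genes with at least 20 UMIs over both libraries, 202 counted as higher (4.75%) and 177 as lower (4.16%), and the median log2 ratio of all genes was 0.00. Without the 4 outlying WT tumour cells, the counts were 176 and 134.

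Of 28 measured interferon-response genes, 10 counted as higher and 0 as lower, with a median log2 ratio of 0.56, and 26 of the 28 had a ratio above 1. Rtp4 (chr16:23520291-23614222), an interferon-induced chaperone of membrane receptors, stood at 147, 63.2 and 145 CPM in the 3 libraries, a log2 ratio between the tumour libraries of 1.20 (0.40 to 2.02). Oasl2, a sensor-like protein of the oligoadenylate synthetase family, stood at 187, 142 and 269 CPM (0.92, 0.37 to 1.47). Ifi204, a DNA-binding protein of the p200 family, stood at 363, 311 and 516 CPM (0.73, 0.35 to 1.11). In each of these the WT tumour library was the low one, with PPARg-/- tumour about level with WT healthy or above it.

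The tethering factor Bst2 stood at 265, 166 and 256 CPM (0.63, 0.09 to 1.16). Irf7, the regulator that amplifies type I interferon, stood at 329, 182 and 282 CPM (0.63, 0.12 to 1.14). For these genes PPARg-/- tumour lay between the other libraries. Isg15, Ifit1, Ifi205 and Cxcl10 also counted as higher, on 39, 16, 28 and 44 UMIs in PPARg-/- tumour, but did not meet the further limits set against single cells and free RNA. Without the outlying WT tumour cells, 6 of 28 counted as higher and 0 as lower and the median was 0.38; Irf7 then had a log2 ratio of 0.49 and Ifi204 of 0.56, both short of 1.5-fold.

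The same list ran the other way in nonclassical monocytes of the same libraries. There 1 of 31 measured genes counted as higher and 15 as lower, with a median of -0.61. Over all 9054 genes measured in nonclassical monocytes, 411 counted as higher and 486 as lower in this comparison. Of the 28 genes measured in classical monocytes, 23 had a ratio above 1 in classical and below 1 in nonclassical cells. Rtp4 stood at 21.2 CPM in PPARg-/- against 40.5 CPM in WT tumour nonclassical monocytes (-0.93, -1.47 to -0.40). Ifit2, a translation inhibitor, stood there at 0.948 against 31.1 CPM, whereas classical monocytes had 64.0 against 42.1 CPM (0.60, -0.52 to 1.71), on 15 and 16 UMIs of which 66.7% and 62.5% were in 1 cell. The difference between the monocyte kinds has no replicate and was not tested.

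**Figure D2:**
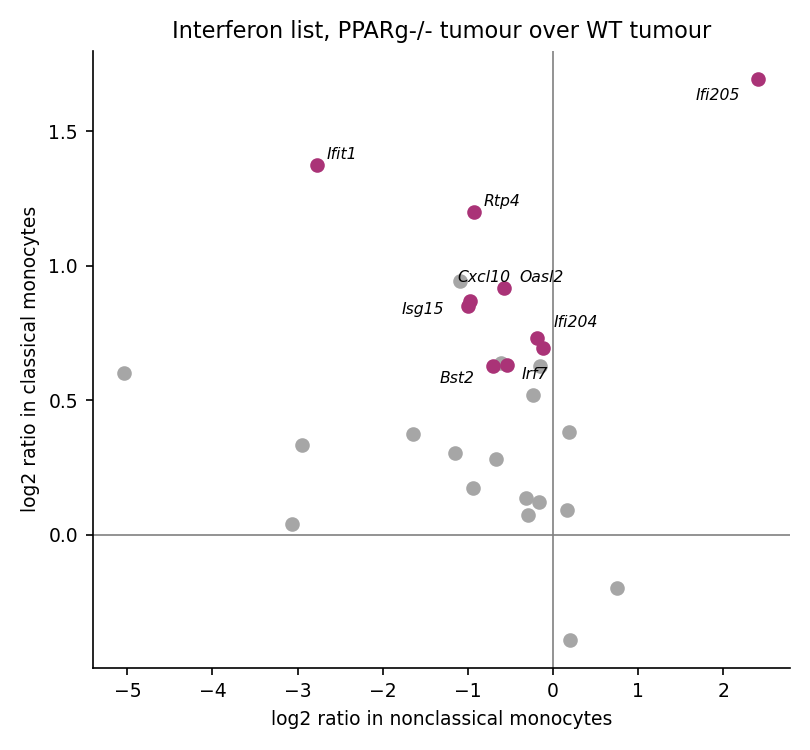
Each point is 1 of the 28 measured interferon-response genes, with the log2 ratio of CPM in PPARg-/- tumour over WT tumour in nonclassical monocytes on the x axis and in classical monocytes on the y axis. Purple points counted as higher in classical monocytes, and 23 of the 28 points lie above 0 on the y axis and below 0 on the x axis.

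Of the 10 measured genes of MHC class II and costimulation 0 counted as higher and 4 as lower, with a median of -0.52. H2-Ab1 (chr17:34257689-34269419), a class II beta chain, stood at 815, 1528 and 811 CPM (-0.91, -1.16 to -0.68). H2-Eb1 (chr17:34305867-34316674), another beta chain, stood at 187, 980 and 550 CPM (-0.83, -1.13 to -0.54). Cd74, the invariant chain that escorts class II, stood at 2009, 3972 and 2300 CPM (-0.79, -0.93 to -0.65). H2-DMb1, part of the peptide-loading DM complex, stood at 173, 261 and 132 CPM (-0.98, -1.61 to -0.38). In these genes WT tumour was the high library. H2-Aa, at 725, 1509 and 1118 CPM (-0.43, -0.65 to -0.22), was short of 1.5-fold, and H2-DMa stood at 271, 342 and 384 CPM (0.17, -0.24 to 0.56). Class II-high cells, described below, numbered 18 in WT tumour and 12 in PPARg-/- tumour. They held 94.4% and 97.2% of the H2-Aa, H2-Ab1 and H2-Eb1 UMIs, so the ratios of these genes rest on few cells. In PPARg-/- tumour the top cell for each gene held 38.0% of the H2-Eb1, 30.5% of the H2-Aa and 23.2% of the H2-Ab1 UMIs. The outlying WT tumour cells held 36.8% of that library's H2-Eb1 UMIs; without them its ratio was -0.38, those of H2-Ab1, Cd74 and H2-DMb1 were -0.62, -0.65 and -0.79, and 3 genes counted as lower. In nonclassical monocytes 7 of 12 counted as lower and 2 as higher, with a median of -1.02.

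Of 17 measured inflammatory and NF-kB genes, 6 counted as higher and 1 as lower, with a median of 0.19. Nfkbia (chr12:55489410-55492647), the inhibitor that NF-kB induces to end its own signal, stood at 355, 248 and 657 CPM (1.41, 1.03 to 1.79). Icam1, an adhesion ligand for integrins, stood at 90.3, 57.9 and 137 CPM (1.24, 0.41 to 2.09). Sod2, the mitochondrial superoxide dismutase, stood at 86.3, 79.0 and 154 CPM (0.96, 0.22 to 1.71). All 3 were highest in PPARg-/- tumour, and they were so in nonclassical monocytes too. There 7 of 18 measured genes of this list counted as higher and 3 as lower, with a median of 0.28. Tnf, Tnfaip3 and Cxcl10 also counted as higher on 22 to 44 UMIs, and Ptgs2, which encodes COX-2, as lower on 4 against 24 UMIs. None of them met the further limits set against single cells and free RNA. In PPARg-/- tumour 1 cell held 31.8%, 36.4% and 56.8% of the Tnf, Tnfaip3 and Cxcl10 UMIs, and in WT tumour 1 cell held 33.3% of Ptgs2. Without the outlying cells 7 of 16 counted as higher and 1 as lower.

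Nfkbia is also a gene of the handling response, and genes of that response lay on both sides. Of 19 dissociation stress genes, 5 counted as higher and 5 as lower (median -0.16). Those higher were Nfkbia, the immediate-early gene Egr1, on 18 against 6 UMIs, and the heat-shock genes Hsph1, Hspa1a and Hspa1b. In PPARg-/- tumour 1 cell held 50% of the Egr1 UMIs and 1 cell 40% of the Hsph1 UMIs. Hspa1a stood at 1351, 579 and 1207 CPM (1.06, 0.80 to 1.32) and Hspa1b at 767, 408 and 798 CPM (0.97, 0.65 to 1.28). Those lower were Ier3, with 39.0% of its WT tumour UMIs in 1 cell, and Atf3, Zfp36, Fos and Fosb. Fos stood at 1463, 1198 and 619 CPM (-0.95, -1.23 to -0.68) and Fosb at 159, 119 and 51.2 CPM (-1.21, -2.27 to -0.27). Jun, Junb, Jund, Dusp1, Btg2, Ier2 and Hspe1 were among the 9 that counted as neither. Hspa1a was higher in nonclassical monocytes of PPARg-/- tumour as well, and in the cells that were neither kind of monocyte it stood at 292, 124 and 194 CPM. The part of cell handling in the ratios of the inflammatory and interferon genes was not tested.

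Among recruitment receptors and adhesion molecules, 4 of 14 counted as higher and 0 as lower, with a median of 0.04. The integrin chain Itgal stood at 305, 245 and 393 CPM (0.68, 0.25 to 1.11) and Itgb7 at 203, 161 and 256 CPM (0.67, 0.13 to 1.21). The fractalkine receptor Cx3cr1, at 307, 545 and 640 CPM (0.23, -0.08 to 0.54), did not count. Without the outlying cells Itgb7 was at 0.56, short of 1.5-fold, and 2 of 13 genes of this list counted as higher.

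Of 19 monocyte transcription factors, 3 counted as higher and 1 as lower (median 0.03). Irf8, which sets the monocyte lineage in its progenitors, stood at 267, 211 and 341 CPM (0.70, 0.23 to 1.16). Cebpa (chr7:35119293-35121928), a myeloid lineage factor, stood at 147, 89.5 and 17.1 CPM, the last on 4 UMIs (-2.39, -4.35 to -0.90). Nr4a1 was alike at 642, 608 and 636 CPM (0.06, -0.24 to 0.37). Of the colony-stimulating factor receptors and their signalling genes 1 of 10 counted as higher and 2 as lower. Csf1r, the M-CSF receptor whose promoter drives the Cre, stood at 843, 516 and 802 CPM (0.64, 0.34 to 0.93). Csf2rb, a chain shared by the GM-CSF receptor, stood at 118, 163 and 230 CPM (0.50, -0.06 to 1.05), and the kinase gene Pim1, a STAT5 target, was lower at 592, 495 and 290 CPM (-0.77, -1.19 to -0.36). Without the outlying cells Csf1r was at 0.53 and no longer counted as higher, Csf2rb at 0.60 then did, and 2 of 9 genes of this list were higher.

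The ratios of known PPARγ target genes rested on the outlying cells. Of 19 such genes 10 were measured, 0 counted as higher and 5 as lower, with a median of -0.97. Without the 4 outlying WT tumour cells 0 counted as higher or lower and the median was -0.18. The lipoprotein lipase gene Lpl shows the step: it stood at 74.3, 529 and 119 CPM, and 165 of its 201 UMIs in WT tumour came from those 4 cells. Acadl, an enzyme of fatty acid oxidation, stood at 50.2, 73.7 and 29.9 CPM (-1.30, -2.74 to -0.08), and at -1.03 without them, no longer counted as lower.

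Among other lists, S100 and granule proteins had 1 gene higher and 3 lower of 10, and complement and coagulation 1 and 2 of 11. Matrix and secreted proteases had 0 higher and 3 lower of 12, and lysosome and phagocytosis 1 and 3 of 21. Without the outlying cells these were, in the same order, 1 and 1 of 10, 2 and 4 of 11, 0 and 0 of 12, and 2 and 0 of 18. Oxidative phosphorylation (16 genes), glycolysis and hypoxia (13) and proliferation (5) had 0 genes higher and 0 lower; without the outlying cells 1 of 11 glycolysis and hypoxia genes was higher. Complement C3 was higher at 474, 269 and 516 CPM (0.94, 0.55 to 1.34), and so was haptoglobin, Hp, at 510, 593 and 960 CPM (0.70, 0.42 to 0.97), which was at 0.56 and no longer counted without the outlying cells. Msr1, a scavenger receptor, stood at 191, 103 and 201 CPM (0.97, 0.32 to 1.62). S100a10, a partner of annexin A2, was lower at 678, 606 and 397 CPM (-0.61, -0.97 to -0.26). Thrombospondin Thbs1 stood at 205, 81.6 and 12.8 CPM, the last on 3 UMIs (-2.67, -5.03 to -0.99), and the LPS co-receptor Cd14 at 259, 179 and 93.9 CPM. In WT tumour 1 cell held 29.0% of the 31 Thbs1 UMIs, so Thbs1 did not meet the limits on single cells and free RNA here.

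The genes furthest apart, among those spread over enough cells and clear of free RNA, began on the higher side with Traf1 (chr2:34941750-34961772), an adaptor of TNF receptors, at 56.2, 29.0 and 128 CPM (2.14, 1.11 to 3.29). Next came Gdpd3, Nfkbia, Ccrl2, Arl5c, Slc44a2, Ifi207 and Kmt5a. Ccrl2, a chemerin-binding receptor induced by inflammation, stood at 211, 52.7 and 137 CPM (1.37, 0.52 to 2.26), and the p200-family gene Ifi207 at 361, 176 and 435 CPM (1.30, 0.84 to 1.77). In nonclassical monocytes Traf1 was also highest in PPARg-/- tumour, at 184, 261 and 458 CPM.

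On the lower side Insig1 (chr5:28071363-28078662), which holds back the activation of sterol synthesis, stood at 58.2, 86.9 and 8.53 CPM, on 29, 33 and 2 UMIs (-3.35, -6.45 to -1.38). It was the only one of 10 measured cholesterol synthesis genes to count as lower, with 0 higher. Ifi202b (chr1:173962568-173982744), a p200-family gene known to be expressed in some inbred mouse strains and silent in others, had 103, 37 and 0 UMIs, or 207, 97.4 and 0 CPM. Against a floor of 3 counts per library its log2 ratio was at most -2.93. It was absent from the whole PPARg-/- tumour library, with 0 UMIs in nonclassical monocytes and 0 in all other cells, where WT healthy had 81 and 355 and WT tumour 49 and 315. The labels used here name no strain, so for this gene a difference in background and the deletion cannot be told apart. The same limit holds for the other genes of this comparison, the p200-family genes Ifi204 and Ifi207 among them. Cebpa, Ctsl, Amz1, Colgalt1 and Ppp3r1 followed, with ratios from -2.39 to -1.63; the protease gene Ctsl was at -1.36 without the outlying cells and then no longer counted as lower.

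**Figure D3:**
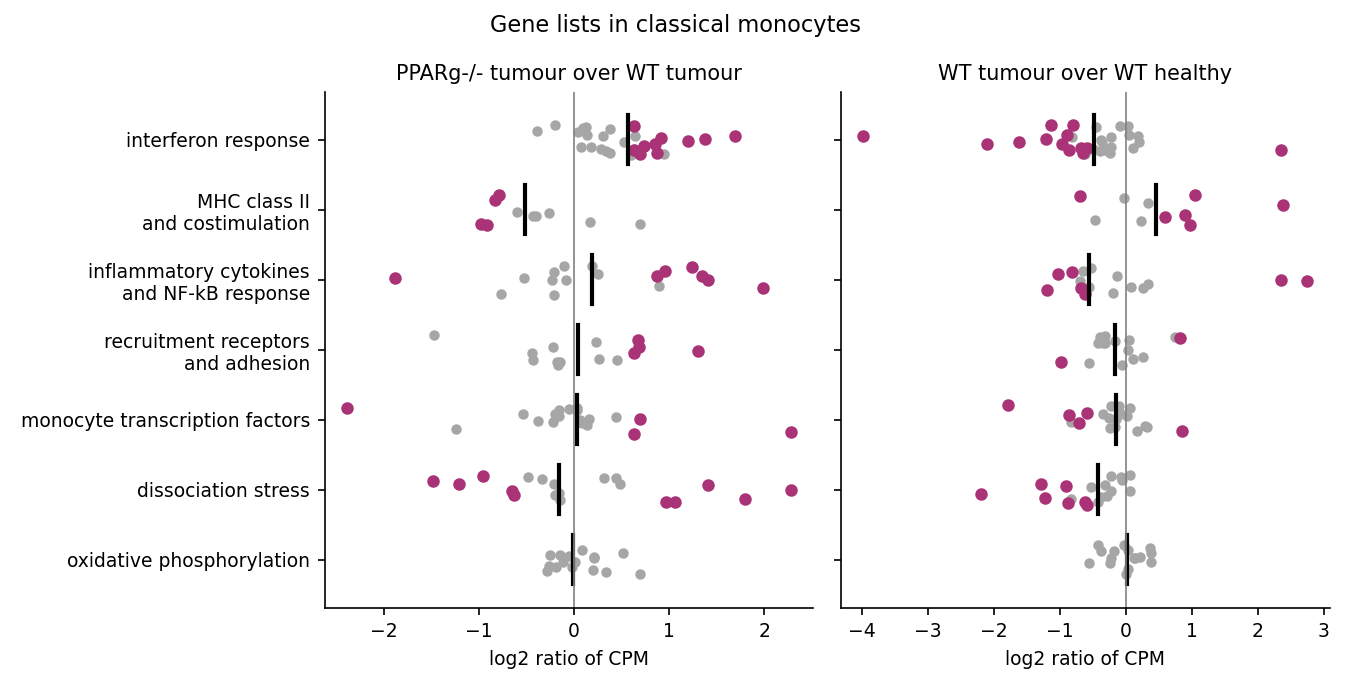
Log2 ratio of CPM for each measured gene of 7 lists in classical monocytes, PPARg-/- tumour over WT tumour at left and WT tumour over WT healthy at right; both use the WT tumour library. Purple points counted as higher or lower, grey points did not, and black bars are medians: the interferon list stands at 0.56 at left and -0.47 at right, the class II list at -0.52 and 0.47.

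The second comparison asked how classical monocytes of tumour-bearing WT mice differ from those of WT healthy mice, with sex and the floxed alleles moving along. In WT tumour 5 of 10 genes of MHC class II and costimulation counted as higher, and 12 of 30 interferon, 7 of 19 stress and 5 of 17 inflammatory genes as lower. Of these 5, 9, 7 and 4 genes, in the same order, also met the limits on single cells and free RNA. Of 5286 measured genes 263 counted as higher (4.98%) and 291 as lower (5.51%), with a median log2 ratio over all genes of 0.00. Without the outlying WT tumour cells the counts were 230 and 286. The WT tumour library enters both comparisons, so a low or high value there moves both in opposite directions.

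Of the 10 measured class II and costimulation genes 5 counted as higher and 1 as lower, with a median of 0.47. H2-Eb1 had a log2 ratio of 2.39 (2.06 to 2.74), and of 1.94 without the outlying cells. In WT healthy 10 cells had H2-Eb1, and 1 cell held 55.9% of its 93 UMIs. Class II-high cells, described below, were 11 in WT healthy and 18 in WT tumour. They held 91.6% and 94.4% of the UMIs of H2-Aa, H2-Ab1 and H2-Eb1, so these ratios rest on few cells. H2-Aa, the class II alpha chain, stood at 725 and 1509 CPM in WT healthy and WT tumour (1.06, 0.87 to 1.25), Cd74 had 0.98 (0.87 to 1.10) and H2-Ab1 0.91 (0.72 to 1.09). The ratios of H2-Aa, Cd74 and H2-Ab1 were 0.76, 0.84 and 0.61 without the outlying cells. The costimulatory ligand Cd86 was the 1 lower gene, at 136 and 84.3 CPM (-0.70, -1.35 to -0.07). Without the outlying cells 4 of 10 counted as higher and 0 as lower. Class I genes went the other way in part: H2-D1 stood at 3163 and 1722 CPM (-0.88, -1.01 to -0.74) and H2-Q7 at 114 and 36.9 CPM (-1.63, -2.59 to -0.77), 2 of 14 lower and 0 higher. This was not particular to classical monocytes. H2-D1 stood at 4908 and 2453 CPM in nonclassical monocytes and at 1930 and 1231 CPM in all other cells. In nonclassical monocytes 4 of 14 class I genes counted as lower and 0 as higher. Over all 8016 genes measured in them in this comparison, 404 counted as higher and 415 as lower.

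Of 30 measured interferon genes, 1 counted as higher and 12 as lower, with a median of -0.47; without the outlying cells it was 1 and 9, with a median of -0.29. Isg15, a ubiquitin-like modifier, stood at 281 and 92.2 CPM (-1.61, -2.19 to -1.07), and Rtp4 had -1.21 (-1.94 to -0.53). After thinning to 2000 UMIs, 28.4% of WT healthy and 9.09% of WT tumour members had an Isg15 UMI, with 17.4% in PPARg-/- tumour; unthinned, 45.9%, 19.1% and 39.1%. The T cell attractant Cxcl9 had 62, 0 and 0 UMIs, with 90.3% of the 62 in 1 cell. Its partner Cxcl10 was the 1 gene higher, on 10 and 39 UMIs, and did not meet the limits on single cells and free RNA.

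Of 19 dissociation stress genes 7 counted as lower in WT tumour and 0 as higher, with a median of -0.42; without the outlying cells 5 were lower. Hspa1a had a ratio of -1.22 and Hsp90aa1, at 759 and 313 CPM, of -1.28 (-1.59 to -0.97). In nonclassical monocytes 12 of 19 counted as lower, with a median of -0.90. Of 17 inflammatory genes 2 counted as higher and 5 as lower, with a median of -0.56, and without the outlying cells 1 and 4 of 16. Among them the chemokine Ccl4 stood at 309 and 153 CPM (-1.02, -1.48 to -0.57) and the inflammasome gene Nlrp3 at 84.3 and 36.9 CPM (-1.19, -2.18 to -0.29). The part of handling in these ratios was not tested.

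The fractalkine receptor Cx3cr1 had a log2 ratio of 0.83 (0.52 to 1.14), whereas Csf1r, the receptor of the macrophage growth factor, had -0.71 (-0.96 to -0.46). Plac8 was at -0.50, and at -0.32 without the outlying cells, both within 1.5-fold.

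Of 20 transcription factors 1 counted as higher and 4 as lower, and without the outlying cells 0 and 4. Maf, which accompanies maturation toward macrophages, stood at 227 and 65.8 CPM (-1.78, -2.47 to -1.15). Complement and coagulation genes were lower in 4 of 12 cases and higher in 0. Thbs1 had -1.33 (-1.96 to -0.73) and C3 -0.82 (-1.17 to -0.48), and Thbd, at -0.88, was at -0.67 and no longer counted without the outlying cells. Of 14 matrix and protease genes 4 were higher and 0 lower, among them fibronectin, Fn1, at 978 and 1670 CPM (0.77, 0.60 to 0.95), and the protease inhibitor Timp2 (chr11:118301069-118355740) at 22.1 and 132 CPM (2.58, 1.62 to 3.67). Without the outlying cells, which held 60.8% of the Ctsd UMIs of WT tumour, 2 of 13 counted as higher.

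The genes furthest apart on the higher side were Timp2, H2-Eb1, Msl3, Tmem189, Cyp4f18, Hist1h1e, Nfe2l1 and Ctsl; without the outlying cells Ctsl, at 0.97, no longer counted as higher. On the lower side the oestrogen receptor gene Esr1 (chr10:4611593-5005614) stood at 393 CPM in WT healthy on 196 UMIs, 2.63 in WT tumour on 1 UMI and 0 in PPARg-/- tumour (-7.22, -12.53 to -4.73). Nonclassical monocytes had it at 329, 2.17 and 4.42 CPM and all other cells at 76.5, 1.48 and 1.52 CPM, so it was highest in all 3 sets of cells in the library that also held Xist. The lymphotoxin gene Ltb followed at 36 against 1 UMIs (-4.78, -10.12 to -2.21), then Arsb, Tgif1, Atp11b, Hsph1, Jaml and Cd93, with ratios from -3.04 to -2.05. Atp11b was lower in WT tumour in other cells as well, at 451 and 78.1 CPM in nonclassical monocytes and 223 and 91.7 CPM in the rest.

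The members were not uniform in MHC class II. H2-Aa, H2-Ab1 and H2-Eb1 together were at 0 UMIs in 45 of 74, 27 of 68 and 25 of 46 cells, while single cells reached 294, 329 and 270.4 per 10000 UMIs. A limit of 20 per 10000, set after the values were seen, parted 11, 18 and 12 class II-high cells, or 14.9% (7.66 to 25.0), 26.5% (16.5 to 38.6) and 26.1% (14.3 to 41.1) of the members. These cells held 91.6%, 94.4% and 97.2% of the class II UMIs. Between 10 and 40 per 10000 lay 7, 8 and 3 cells, and at a limit of 10 or 40 the high cells were 16, 21 and 12 or 9, 13 and 9. In nonclassical monocytes 9.05%, 12.6% and 5.15% passed the limit of 20, and in T cells, which should lack these genes, 2.01%, 5.08% and 3.07%.

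The share of class II-high members was similar in the tumour libraries, and the class II-high cells of PPARg-/- tumour had the lowest mean, 99.6 per 10000 against 123 in WT tumour and 116 in WT healthy. Median UMIs of the high and the other members were 6587 and 6564, 5626 and 4956, and 4775 and 5039, so the high cells were of ordinary depth in the median. The high cells of WT tumour also took in outlying cells of 13187 and 13700 UMIs.

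**Figure D4:**
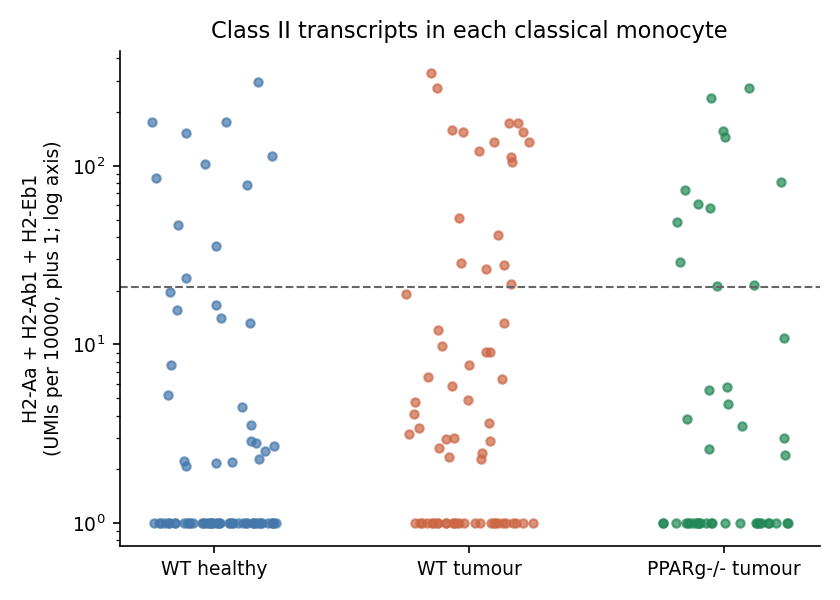
Each point is 1 classical monocyte, with its summed UMIs of H2-Aa, H2-Ab1 and H2-Eb1 per 10000, plus 1, on a log axis, by library; the dashed line marks the limit of 20 per 10000 (drawn with the added 1). Most cells lie at 0, and 11, 18 and 12 cells lie at or above the line, from left to right.

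Class II genes are switched on together by the co-activator CIITA, which docks on factors bound to a conserved promoter block that includes a Y box, an inverted CCAAT motif. The promoters are shown because 2 of the 3 genes that define the class II-high cells and a further gene that goes with them share this motif at nearly the same place. RefSeq windows of 250 bases before to 50 after the gene start (GRCm38.p6, the patched form of mm10) were found for 4 of 6 genes searched. The Y-box core TGATTGG was searched on both strands and is held by 7.82% of all 32851 windows. It is in capitals below, 5′ to 3′ on the gene's strand, and begins 50, 61 and 63 bases before the start of H2-Aa (chr17:34287847-34287933, minus strand), H2-Eb1 (chr17:34305746-34305832, plus strand) and H2-DMb1 (chr17:34153068-34153154, plus strand).
H2-Aa: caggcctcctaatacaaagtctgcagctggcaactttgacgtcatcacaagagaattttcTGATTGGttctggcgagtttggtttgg
H2-Eb1: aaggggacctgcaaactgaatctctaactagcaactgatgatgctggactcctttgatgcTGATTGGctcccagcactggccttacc
H2-DMb1: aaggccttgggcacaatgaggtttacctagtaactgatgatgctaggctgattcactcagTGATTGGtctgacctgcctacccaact
Neither of the 2 windows of H2-DMa held these letters.

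Leaving out the 4 outlying WT tumour cells, 39 class II-high and 145 other members were set side by side within each library. Since the cells were parted by 3 of their own genes, what follows describes them and is no test. Of 1834 other genes with at least 20 UMIs in each library, 16 were at least 1.5-fold higher in the high cells of all 3 libraries (0.872%) and 37 at least 1.5-fold lower in all 3 (2.02%). Class II partners led the first group. Cd74 stood at 10704 against 544, 10774 against 1024, and 7563 against 433 CPM in the 3 libraries. H2-DMb1 had log2 ratios of 2.91, 3.14 and 2.79, and H2-DMa of 1.71, 1.09 and 1.24. Ciita, which encodes the co-activator, had 24, 17 and 9 UMIs in the high cells and 12, 5 and 2 in the more numerous others, ratios of 3.57, 3.24 and 3.67, below the minimum for the count.

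Beyond class II the high cells had more of Tmem176b, an ion channel of dendritic cells and monocytes (2.32, 1.56 and 1.33), and of the lipid carrier Apoe, at 3438 against 1468, 2832 against 1177, and 3097 against 1358 CPM. Aif1, an actin-bundling protein of macrophages (2.25, 0.86 and 1.23), the inhibitory Fc receptor gene Fcgr2b (0.77, 0.69 and 1.87) and the chaperone Calr (1.41, 0.88 and 0.90) were on the same side. Several of these ratios rest on few UMIs, and the interval of Fcgr2b included 0 in both WT libraries and that of Aif1 in WT tumour.

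Several genes typical of classical monocytes were lower in the high cells. The proteoglycan gene Vcan had 1, 1 and 3 UMIs in them and 87, 61 and 33 in the others (-3.87, -4.46 and -1.96). Fn1 stood at 139 against 1119, 633 against 1811, and 978 against 1907 CPM. Hp had ratios of -2.37, -0.87 and -0.67, Anxa1, which encodes annexin A1, -2.19, -0.65 and -0.95, and the homeodomain gene Hopx -2.21, -3.81 and -1.17. The intervals of Anxa1 included 0 in both tumour libraries and that of Hopx, on 3 UMIs in the high cells, in PPARg-/- tumour. For Fn1 and Hp the gap was widest in WT healthy and narrowest in PPARg-/- tumour.

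Some other genes of the monocyte were nearer to level. Plac8 had ratios of -0.03, -0.13 and -0.16, Ms4a4c of 0.24, -0.13 and -0.33 and Irf8 of 0.15, 0.35 and 0.44. Of the genes of the rule, Ccr2 had 0.13, 0.55 and -0.26. Ly6c2 (-0.28, -0.59 and -1.16) and F13a1 (-1.03, -0.74 and -0.43) were lower in the high cells of each library. The classical marker Chil3 was lower as well (-1.71, -1.49 and -0.34). In PPARg-/- tumour the intervals of F13a1 and Chil3 included 0. Dendritic and macrophage genes that the selection limits were nearly absent, with Cd209a at 0, 2 and 2 UMIs in the high cells and C1qa at 0 in all of them. Whether the high cells are a step of maturation or another kind of cell was not tested.

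**Figure D5:**
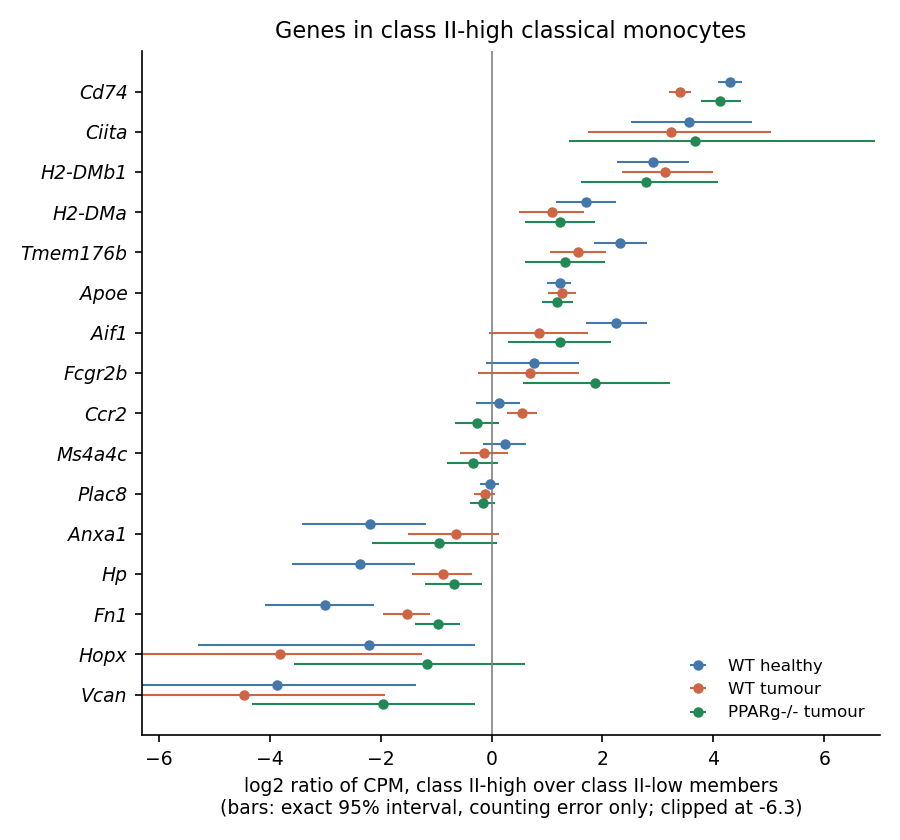
Log2 ratio of CPM in class II-high over other classical monocytes for 16 genes in each library, without the 4 outlying cells; bars are exact 95% intervals that cover counting error only. Cd74, Ciita, H2-DMb1, Tmem176b and Apoe lie to the right of 0 in all 3 libraries, Plac8 close to 0, and Vcan, Fn1 and Hp to the left.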

How the data were processed

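The authors deposited raw UMI counts per gene and barcode for 3 libraries, made on mm10. The tools named are Cell Ranger 6.0.1 with Seurat 4.0.1, per the submitters' processing notes, but Cell Ranger 4, per the file headers. Alignment settings: not given in the sources used here. The deposited counts were whole numbers without scaling, and no strand or doublet step is stated for them.

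The members, the gene lists and the rule for named genes were chosen with earlier results of these data known. Cells were filtered and selected as described above, with no clustering. Scrublet (scanpy 1.11.5, expected rate 6%) was run per library, and its calls were removed only in an alternative. UMIs were summed over the members of a library and given as CPM. Ratios have exact 95% conditional binomial intervals and shares exact binomial (Clopper-Pearson) intervals, in Python 3.11.15 with scipy 1.17.1. No test between groups was run, since each group is 1 library, and the edgeR test that counts would allow has no replicate to use. A gene was measured with at least 20 UMIs over both libraries. Ratios against 0 used a floor of 3 counts. Amplified UMIs of 1 cell are not independent samples of a group, so intervals cover counting error only.

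Genes named for size were the 8 highest and 8 lowest ratios per comparison with at least 30 UMIs in the higher library, a UMI in at least 10% of members, at most 20% of UMIs in 1 cell, and 10% of the free-RNA CPM under 50% of the class CPM. Predicted, ribosomal, mitochondrial, globin, receptor-chain and sex-linked genes and the genes of the selection were left out of this ranking. Up to 4 genes per list came by the same limits, beside the 5 markers of the label and Pparg, Csf1r, Nr4a1, Cx3cr1 and Csf2rb; Cd14, Cxcl9, Fos, Fosb, Bst2, Ifit2, Isg15, Tnf, Lpl and other list genes given with values were named after these were seen. A few genes that these rules name are not reported here. Gene positions are from GENCODE vM21 on mm10. The interval script was tested on simulated counts.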

Additional observations from a re-analysis of the deposited data

Results flagged for a closer look

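For 3 genes the ratio in classical monocytes and that in nonclassical monocytes of the same libraries lay on opposite sides, each past 1.5-fold. With 1 library per group the difference between the kinds of monocyte was not tested. Rtp4 had a log2 ratio of PPARg-/- tumour over WT tumour of 1.20 in classical and -0.93 in nonclassical monocytes. Thbs1 had a log2 ratio of WT tumour over WT healthy of -1.33 in classical and 2.57 in nonclassical monocytes, where WT tumour had 20 UMIs and WT healthy 3. The scavenger receptor gene Msr1 had a log2 ratio of WT tumour over WT healthy of -0.89 in classical and 0.86 in nonclassical monocytes, at 75.2 against 41.3 CPM in the latter.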

How the results depend on the processing

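No paired analysis was possible because each group is 1 library and the groups share only 1 replicate number. Precision is limited by the 46 to 74 members per library. Across alternatives 83 of 107 values of cell numbers, shares and gene counts stayed within their stated range of the value reported, and 24 did not. With tighter limits on other lineages the WT healthy and PPARg-/- tumour members numbered 45 and 26, the shares were 16.9%, 11.9% and 3.14%, and 106 genes were lower in PPARg-/- than in WT tumour. With cells thinned to 2000 UMIs before selection the WT tumour share was 19.6%. In the order of higher and lower for PPARg-/- over WT tumour, then higher and lower for WT tumour over WT healthy, that setting gave 51, 52, 68 and 85 genes, members thinned to 1000 UMIs gave 31, 25, 38 and 45, and a minimum of 50 UMIs gave 105, 91, 138 and 189. A minimum of 1 UMI gave 326 and 399 higher genes, and a 2-fold rule 109 higher in the first comparison and 166 and 167 in the second. The minimum of 1 UMI tested 11422 and 11921 genes in place of 4257 and 5286; the other settings leave fewer UMIs, cells or genes, or ask for a larger ratio.

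Named genes that counted as higher or lower changed sign only under the settings that thin cells, where few UMIs remain. Changes of sign in named genes that did not count were not tallied. In PPARg-/- over WT tumour, selection after thinning to 2000 UMIs gave log2 ratios of 0.84 for Acadl and -0.031 for Hspa1a, and members thinned to 1000 gave -0.44 for Itgb7, -0.064 for Irf8, -0.17 for Oasl2 and 0.98 for Timp2. In WT tumour over WT healthy the first gave -0.42 for Msl3, 0.13 for Ccl3 and 0.36 for Thbd, and the second 0.61 for Rtp4, 0.12 for Gbp7 and -0.35 for Cd84. Of 520 list medians under the alternatives 509 moved by no more than the counting error typical of 1 of their genes. That range is wide and says little of stability. It also took in the PPARγ target list between the tumour libraries, which went from -0.97 to -0.18 without the outlying cells. Leaving out the 4 outlying WT tumour cells, the classical share there was 14.9% and the class II-high share 25.0%; this setting and the class II limits of 10 and 40 were chosen after the data were seen.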
